A study of Caenorhabditis elegans with 2 samples.

Results

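Distal intergenic peaks of SMA-3 on the autosomes of Caenorhabditis elegans were examined: 723 of the 4205 peaks in the authors' optimal list, or 17.2%. A peak was distal when its summit lay on chromosome I, II, III, IV or V, outside every protein-coding gene, outside every window from 1000 bp upstream to 200 bp downstream of a protein-coding transcription start site, and more than 100 bp from any tRNA gene. The rule uses position and not signal. Distances to genes, and the sequence in which a summit can lie, are partly set by it. The data are chromatin immunoprecipitation sequencing with an anti-GFP antibody in 2 biological replicates of 1 group, whole L2 hermaphrodites of strain CS152 collected 24 hours after release from starved L1 arrest. These animals carry the sma-3 allele wk30 and an integrated array, qcIs, that supplies GFP-tagged SMA-3 together with the marker rol-6. The genotype is written with GFP ahead of the gene, whereas a note in the labels puts a GFP-FLAG tag at the C terminus, and these statements were not reconciled. No immunoprecipitation from animals lacking the tag is used here, so binding of SMA-3 and recovery of the same DNA without SMA-3 cannot be told apart, nor can the cells that gave a peak be named.

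SMA-3 is a receptor-regulated Smad of the worm bone morphogenetic protein (BMP) pathway. The ligand DBL-1 binds the receptors SMA-6 and DAF-4, which phosphorylate Smads that enter the nucleus with the co-Smad SMA-4 and act on transcription beside the zinc finger protein SMA-9, the worm Schnurri. The pathway is known for control of body size, and also acts in male tail patterning, mesoderm fate, immunity and fat storage. Worm genes are closely packed, and much of their regulatory DNA lies within a short distance upstream of the start site, so that peaks beyond the promoter window fall in the longer intergenic stretches.

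The summit windows that follow were printed because the results turn on them. They comprise a very strong peak that holds none of the Smad motifs searched, the 2 distal windows with a Smad and Schnurri composite site, the strongest peaks at lon-1, at a spliced leader RNA gene and at egl-9, the peak at daf-4, a window with a GAGA repeat and a pair of E-boxes, a window with a pair of longer GAGA stretches, and a window with the B box of tRNA genes beside a small nucleolar RNA gene. Each is the forward strand of WBcel235, the assembly that ce11 names, from 75 bp before the summit to 75 bp after it, from the RefSeq sequence. Capitals mark matches on either strand to the Smad binding element GTCTG, its extended form CAGACA, the GC-rich Smad site GGCGC, the Mad site GCCGNCGC, the composite site, the GAGA repeat GAGAGAGA, the E-box CACGTG and the B box GTTCGANNC. The extended form contains the shorter one read on the other strand.
sup-26 (chrIII:4282112-4282262): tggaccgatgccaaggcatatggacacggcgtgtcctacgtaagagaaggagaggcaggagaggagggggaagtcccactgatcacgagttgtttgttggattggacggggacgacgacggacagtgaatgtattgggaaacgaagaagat
ins-13 and sls-2.2 (chrII:5543487-5543637): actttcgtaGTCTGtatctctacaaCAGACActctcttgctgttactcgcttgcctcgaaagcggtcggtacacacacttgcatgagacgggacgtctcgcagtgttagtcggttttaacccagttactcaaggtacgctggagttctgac
T04C4.3 (chrIV:2219561-2219711): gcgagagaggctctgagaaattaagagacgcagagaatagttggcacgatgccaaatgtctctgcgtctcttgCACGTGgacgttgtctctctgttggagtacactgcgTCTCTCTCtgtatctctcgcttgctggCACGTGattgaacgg
lon-1 (chrIII:5472858-5473008): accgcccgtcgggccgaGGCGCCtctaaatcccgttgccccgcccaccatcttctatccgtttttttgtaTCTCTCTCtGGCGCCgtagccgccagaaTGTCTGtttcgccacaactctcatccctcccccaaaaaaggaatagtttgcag
egl-9 (chrV:10466686-10466836): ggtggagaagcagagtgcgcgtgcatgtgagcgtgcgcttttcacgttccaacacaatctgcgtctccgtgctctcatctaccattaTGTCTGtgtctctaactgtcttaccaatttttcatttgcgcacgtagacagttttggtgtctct
let-418 (chrV:5820493-5820643): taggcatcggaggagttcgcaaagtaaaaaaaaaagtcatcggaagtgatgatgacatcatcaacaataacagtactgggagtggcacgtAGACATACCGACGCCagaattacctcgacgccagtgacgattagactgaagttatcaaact
cec-4 and F32E10.10 (chrIV:7573996-7574146): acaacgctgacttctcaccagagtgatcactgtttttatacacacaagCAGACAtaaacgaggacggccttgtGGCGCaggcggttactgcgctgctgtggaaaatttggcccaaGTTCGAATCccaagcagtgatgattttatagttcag
rsks-1 (chrIII:11243500-11243650): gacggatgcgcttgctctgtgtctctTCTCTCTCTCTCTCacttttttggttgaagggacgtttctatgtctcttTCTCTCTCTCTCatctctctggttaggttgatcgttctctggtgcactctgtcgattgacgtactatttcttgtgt
daf-4 (chrIII:5621317-5621467): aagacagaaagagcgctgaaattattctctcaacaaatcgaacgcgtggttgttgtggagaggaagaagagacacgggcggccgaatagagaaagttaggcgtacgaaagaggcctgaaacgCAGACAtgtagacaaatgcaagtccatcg
crm-1 (chrV:10333900-10334050): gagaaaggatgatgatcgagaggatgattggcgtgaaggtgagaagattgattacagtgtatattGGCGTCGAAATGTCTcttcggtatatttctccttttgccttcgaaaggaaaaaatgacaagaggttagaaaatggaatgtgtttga

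In pooled signal the distal peaks lay between 70.2 and 679.6 around a median of 114. This is the authors' own value per peak, on a scale not given in the sources used here, and it served to rank peaks within a list. Among all 4205 peaks the highest-placed distal peak stood at rank 39. Distal peaks were weaker than promoter peaks as a class. Of the distal peaks, 331 of 723 (45.8%) were among the 2102 strongest of the optimal list, against 1076 of 1919 (56.1%) autosomal promoter peaks, a log2 odds ratio of -0.60 (95% interval -0.84 to -0.35, adjusted p = 1.05e-05 by Fisher's exact test). Medians were 114 at distal peaks and 133 at promoter peaks, and the highest values were 679.6 and 1762. Intronic autosomal peaks had 207 of 442 (46.8%) there, and the log2 odds ratio of distal over intronic peaks was -0.06, with an interval from -0.40 to 0.28 (exact test, adjusted p = 0.879). Just outside the promoter limit, the 29 distal peaks less than 100 bp beyond it had a median signal of 96.9 (71.5 to 495). Just inside it, the 52 promoter peaks less than 100 bp from it had a median of 129 (71.2 to 331.9).

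Both replicate libraries gave nearly every distal peak. The optimal list was derived from these replicates, so such overlap is largely built in, and only differences between classes are of interest. Each of the 723 overlapped a region of the replicate 1 list, with a signal there of 11.6 to 286 (median 50.6), and 720 overlapped one of replicate 2, with 16.5 to 414 (median 68.4). Each replicate list holds 30000 regions, most of them weak. Overlap with one of the 4205 strongest regions of both replicates was therefore used as the stricter measure, and 570 distal peaks (78.8%) met it, against 80.3% of all 4205 optimal peaks. Promoter peaks met it in 1588 of 1919 cases (82.8%), and the difference missed the threshold (log2 odds ratio -0.37, interval -0.68 to -0.06, adjusted p = 0.0513 by Fisher's exact test). Failures were mostly weak peaks. Among the 2102 strongest 326 of 331 distal peaks passed, against 1073 of 1076 promoter peaks, a difference that was called (-2.37, exact test, adjusted p = 0.0445). It was also called in a pooled list as long as the ce10 optimal one (-0.42, exact test, adjusted p = 0.000502). That list of 5405 regions was still matched to the 4205 strongest of each replicate.

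**Figure D1:**
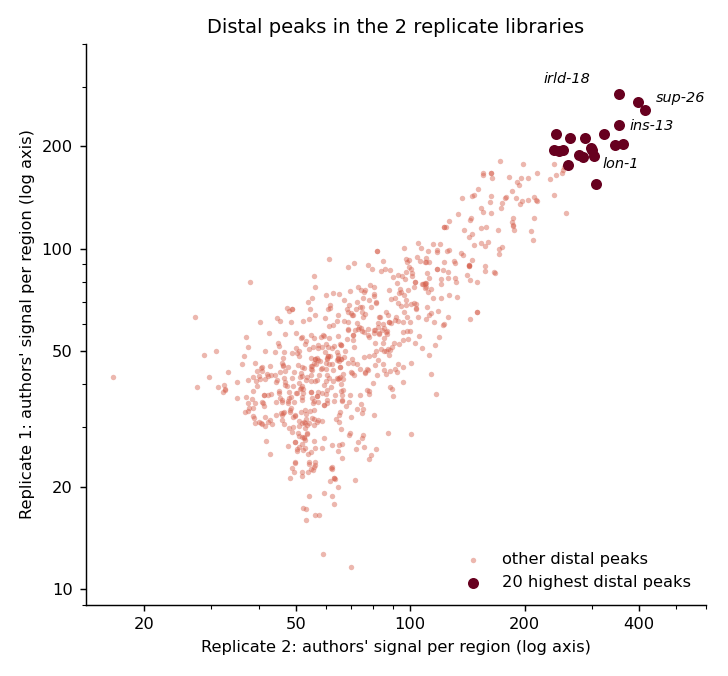
Signal of each distal peak in replicate 2 (horizontal, log axis) and replicate 1 (vertical, log axis), in the authors' units per region. The 20 highest distal peaks (dark) lie together at the top right, up to 286 in replicate 1 and 414 in replicate 2.

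The strongest distal peak lay between sup-26, which encodes an RNA-binding protein, and R10E4.3, at summit III:4282187 and 1963 bp upstream of sup-26. Its signal was 256 in replicate 1, 414 in replicate 2 and 679.6 in the pooled list, where it held rank 39. Its window, printed above, was 53.6% GC and held none of the 15 motifs searched. The same stretch of 5616 bp held another of the 20 strongest, 953 bp from the end of R10E4.3, with 187 in replicate 1, 285 in replicate 2 and 472 pooled. That window held GTCTG and GGCGC. Both libraries placed this pair of peaks high, at ranks 52 and 148 in replicate 1 and 39 and 122 in replicate 2.

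Spliced leader genes stood beside another group of peaks. The fourth strongest distal peak, at II:5543562, had a signal of 231 in replicate 1, 354 in replicate 2 and 581 pooled. Its summit lay just before the gene sls-2.2, which encodes an SL2 spliced leader RNA, the short exon that trans-splicing joins to messages from downstream genes of operons. A further summit at II:5543766, with 409 pooled, stood just past the other end of sls-2.2 and shared a region with the first in both replicate lists. One more, at II:5544324 with 156 pooled, lay beside sls-2.3 in the same 2726-bp stretch. The nearest coding gene for these summits was ins-13, an insulin-like peptide gene. Distal summits also lay beside sls-2.17 (148) and sls-2.13 (143), both on chromosome IV.

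Among the other strongest peaks, lon-1 had one at III:5472933, 1543 bp upstream, with 195 in replicate 1, 300.5 in replicate 2 and 495.5 pooled. The peak at V:1151518 lay 4753 bp upstream of cmd-1, the calmodulin gene, inside the long intergenic RNA gene linc-128, with 202 in replicate 1, 346 in replicate 2 and 536 pooled. The peak at IV:14594424 lay in a 35563-bp stretch between irld-18 and dmd-6, a gene of a DM domain factor, 13385 bp from the nearer start, with 286 in replicate 1, 354 in replicate 2 and 635 pooled. It was the highest distal peak in replicate 1 at rank 35. Summits stood 3139 bp upstream of fos-1, which encodes a Fos transcription factor (217 in replicate 1, 242 in replicate 2, 458 pooled), and 2519 bp upstream of cpt-1, a carnitine palmitoyltransferase gene of fatty acid import into mitochondria (196, 252 and 440.3 in the same order). A peak at V:13658778 lay between the divergent genes letm-1, of a mitochondrial membrane protein, and lpin-1, of the lipid enzyme lipin, with 495 pooled.

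Of the 20 strongest distal peaks, pooled signal 426 to 679.6, all overlapped the strongest regions of both replicates, the lowest-placed at rank 241 in replicate 1 and 198 in replicate 2. Their other nearest genes were F40E3.3, F58D12.3, T04C4.3, ppm-2, nlp-40, F22B7.9, Y48G8AR.8, F07H5.13, egl-9, C34B4.2 and mtm-3. In 15 of the 20 the summit was upstream of the nearest start, beside 70.5% of all 723. GTCTG was in 9 of the 20 windows, GGCGC in 6, the GAGA repeat in 4, a GATA site in 4 and the E-box in 3. Over all 723 distal windows the shares were 27.4%, 17.7%, 14.1%, 32.5% and 12.6% in the same order, and no test was run on the 20. Genes annotated as ncRNA were within 100 bp of 5 of the 20 summits, and of 11.5% of all distal summits.

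The genes egl-9 and hif-1, set side by side after their values were seen, each had a peak among the stronger ones. The enzyme EGL-9 hydroxylates the transcription factor HIF-1 and so marks it for destruction. The egl-9 peak, at V:10466761 and 1756 bp upstream, had 177 in replicate 1, 259 in replicate 2 and 443 pooled, its window held CAGACA, and the overlapping ncRNA genes F22E12.9 and F22E12.10 lie there on opposite strands. The hif-1 peak, at V:20778429 and 1978 bp upstream, had 174 in replicate 1, 254 in replicate 2 and 426 pooled, and held none of the motifs. They were close in strength in both libraries, at ranks 170 and 178 in replicate 1 and 157 and 165 in replicate 2.

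Distal peaks lay a median of 2173 bp from the nearest protein-coding start site (425 to 16589 bp, quartiles 1420 and 3406). The distance was over 5000 bp for 87 and over 10000 bp for 13. The summit was upstream of that start at 510 peaks (70.5%) and past it at 213 (29.5%), with median signals of 114 and 116. The rule bars summits inside genes, so a summit past a start must lie beyond the whole gene. These shares and distances are thus partly set by the rule. Orientation of the flanking genes was compared with that of the 768 regions, among the 6000 weakest of the pooled list, that met the same position rule. Those regions lay a median of 2319 bp from the nearest start (quartiles 1475 and 3850), and the difference in distance was not tested. Convergent stretches, where 2 gene ends face each other, held 72 of 723 distal peaks (9.96%), against 130 of 768 lowest-ranked regions (16.9%), a log2 odds ratio of -0.88 (-1.32 to -0.43, adjusted p = 0.000316 by Fisher's exact test). Divergent stretches held 214 distal peaks (29.6%), against 213 lowest-ranked regions (27.7%), a difference within counting error (log2 odds ratio 0.13, -0.19 to 0.46, exact test, adjusted p = 0.623).

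The centres of the autosomes carried more distal peaks per length than the outer parts. With each autosome divided into 3 equal parts, the middle parts held 318 of the 723 peaks (44.0%), against 30.4% of the 19.4 Mb of sequence that meets the rule (exact binomial test, adjusted p = 2.04e-13). In peaks per Mb of such sequence this is 54 (95% Poisson interval 48.2 to 60.3) in the middle parts and 30 (27.2 to 33.1) in the outer parts. Lowest-ranked regions had 213 of 768 (27.7%) in the middle parts (log2 odds ratio of distal peaks over them 1.03, 0.72 to 1.34, adjusted p = 3.67e-10 by Fisher's exact test). The median signal of distal peaks was 115.1 in the middle parts and 114 in the outer parts. Density was 44.3 per Mb on chromosome I, 45.2 on II, 50.1 on III, 28.5 on IV and 29.6 on V, around 37.3 on all 5 together. Chromosomes IV and V thus had intervals (24.0 to 33.6 and 25.1 to 34.6) below those of I, II and III, the lowest of which began at 36.9. Lowest-ranked regions were also sparser on IV and V, at 34.5 and 31.5 per Mb, against 45.4 on I, 43.3 on II and 53.4 on III, and whether the chromosomes differed more for distal peaks was not tested.

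**Figure D2:**
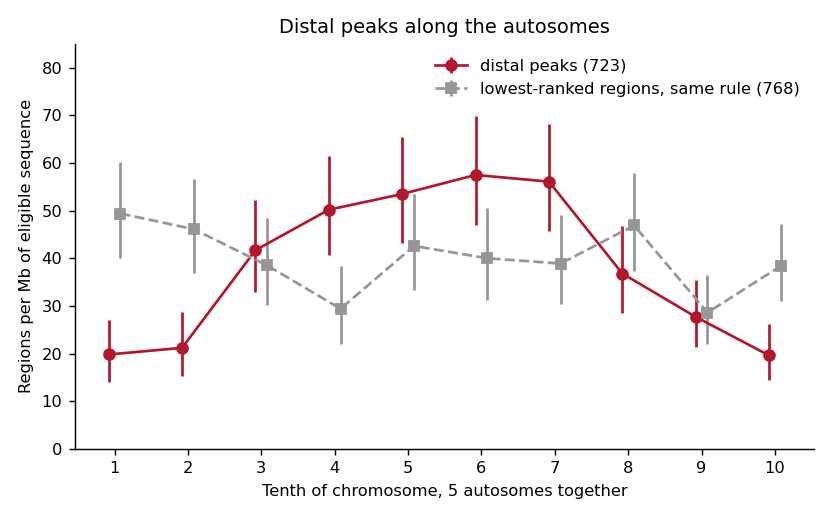
Distal peaks (circles) and lowest-ranked regions that meet the same position rule (squares) per Mb of eligible sequence, in 10 equal parts of chromosome length with the 5 autosomes added together, bars giving 95% exact Poisson intervals. Distal peaks rise to 57.5 per Mb in part 6, and stand at 19.8 and 19.6 in the end parts, where lowest-ranked regions stand at 49.4 and 38.4.

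The 723 peaks fell in 535 stretches, of which 414 held 1, 81 held 2 and 24 held 3, and 147 peaks (20.3%) were in stretches with 3 or more. Another optimal peak lay within 1000 bp of 131 of the 723 (18.1%), against 255 of 1919 promoter peaks (13.3%), a log2 odds ratio of 0.53 (0.20 to 0.86, adjusted p = 0.00502 by Fisher's exact test). In the same exact test this call ended with a distance of 500 bp (log2 odds ratio 0.19, adjusted p = 0.766) and with a promoter window of 2000 bp (0.28, adjusted p = 0.296). Intronic peaks had such a neighbour in 99 of 442 cases (22.4%, log2 odds ratio of distal over intronic -0.38, exact test, adjusted p = 0.135). The most crowded stretch was the 18574 bp between snt-1, the synaptotagmin gene, and egl-27, with 7 peaks of at most 177 in signal. The product of egl-27 resembles subunits of the nucleosome remodelling complex NuRD. Next came the 26771 bp between C30G12.4 and C30G12.2, with 6 peaks. The stretches that follow were picked after their values were seen and not by count, and other stretches also held 5 or 4. In 13695 bp upstream of let-418, which encodes the Mi-2 ATPase of NuRD, there were 4 peaks of 300.2, 292.5, 174 and 121. The 4687 bp between acs-11 and F41C3.2 held 5, and the 6475 bp between F48E8.2 and lon-1 held 4.

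Summits in soft-masked, repetitive sequence made up 16.5% of the 723 distal peaks, against 240 of 768 lowest-ranked regions (31.2%), a log2 odds ratio of -1.20 (-1.56 to -0.84, adjusted p = 1.54e-10 by Fisher's exact test). Promoter peaks had 312 of 1919 (16.3%) and intronic peaks 65 of 442 (14.7%), neither distinguishable from distal peaks (exact tests, adjusted p = 0.971 and 0.623).

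GC content rose around distal summits over a broader span than around promoter summits. Within 25 bp of the summit it averaged 44.6% ± 9.8 (SD, n = 723) at distal peaks and 48.7% ± 9.87 (SD, n = 1919) at promoter peaks. Within 150 bp the order was the other way, 40.5% ± 6.3 at distal and 38.2% ± 6.25 at promoter peaks. The share of peaks above the median of all peaks was 323 of 723 distal (44.7%) against 857 of 1919 promoter windows (44.7%) within 75 bp, the width set for the comparison, with a log2 odds ratio of 0.00 (-0.25 to 0.25). Within 50 bp it was -0.72 (adjusted p = 4.93e-08) and within 150 bp 0.85 (adjusted p = 1.47e-10), both by Fisher's exact test. In the profile, 130 bp before the summit, GC content averaged 37.6% at distal peaks and 32.6% at promoter peaks, with 38.4% at intronic peaks. Within 300 bp the means were 37.6% at distal, 36.7% at promoter and 39.6% at intronic peaks.

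**Figure D3:**
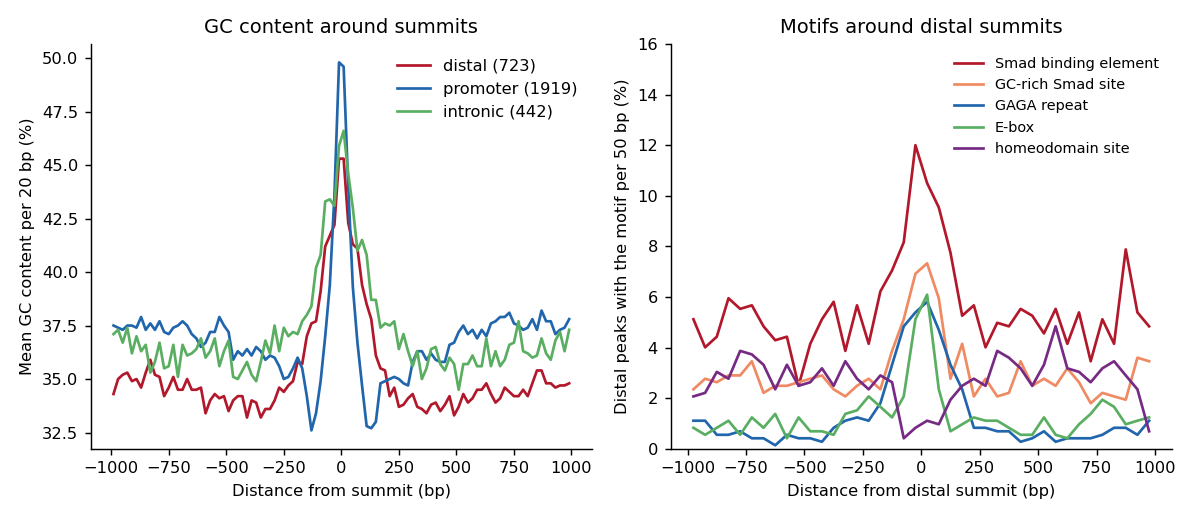
Left, mean GC content per 20 bp against distance from the summit at distal, promoter and intronic peaks; right, the share of distal peaks with each of 5 motifs per 50 bp. Promoter GC content forms a narrow peak of 49.8% with dips of 32.6% at 130 bp, where distal peaks stand at 37.6%, and 4 of the motifs rise at distal summits while the homeodomain site falls.

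Smad motifs were more frequent at distal summits than beside them. Each summit window, 75 bp to either side, was paired with one centred 600 bp away, to the right where that was free of other summits. GTCTG was in 198 of 723 summit windows (27.4%), against 99 flanks (13.7%), a log2 odds ratio of 1.27 (exact McNemar test, adjusted p = 4.74e-10). CAGACA was in 111 summit windows and 43 flanks (1.49, exact test, adjusted p = 2.47e-08). GGCGC was in 128 summit windows and 55 flanks (1.49, exact test, adjusted p = 8.84e-09), and the Mad site in 17 and 3 (2.32, adjusted p = 0.00387). Summit windows were richer in GC, 42.6% against 34.2% in flanks. With the GC count of each window in a logistic model, conditional on the pair, GTCTG (0.70) and CAGACA (0.94) stayed past the adjusted threshold of 0.05, while GGCGC (0.14) and the Mad site (0.60) did not.

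The GAGA repeat and the E-box differed more than any Smad motif that passed. The GAGA repeat, which GAGA-binding factors recognise in flies, was in 102 of 723 summit windows (14.1%), against 6 flanks (0.830%), a log2 odds ratio of 3.98 (exact McNemar test, adjusted p = 1.88e-22). The E-box CACGTG, bound by basic helix-loop-helix factors, was in 91 (12.6%), against 14 flanks (1.94%), a log2 odds ratio of 2.84 (exact test, adjusted p = 8.12e-15). GATA sites (AGATAA or TGATAA), read by the GATA factors of gut and epidermis, were in 235 summit windows (32.5%) and 168 flanks (23.2%; 0.66, exact test, adjusted p = 0.000226). These 3 held with GC content in the model, at 3.18, 2.81 and 1.89. Of the 15 motifs, 12 were higher at summits, and with GC content 6 were, the sixth being the forkhead site TGTTTAC (21 summit windows, 8 flanks; 1.34, exact test, adjusted p = 0.0301). The forkhead call ended without replicate 1 (0.82), without replicate 2 (0.74), with each of 3 other choices of flank (0.67 to 1.14), with 50 bp to either side, with a promoter window of 2000 bp and among the 2102 strongest peaks. Among the 2102 strongest peaks 5 motifs were higher at summits, and GATA sites were not called (0.31, exact test, adjusted p = 0.347). In the comparison without GC content the GC box GGGCGG (58 and 17), the AP-1 site TGANTCA (56 and 36), the nuclear receptor site AGGTCA (62 and 32) and the B box (17 and 4) also passed. The homeodomain site TAATTA was lower, in 18 summit windows (2.49%), against 78 flanks (10.8%; -2.28, exact test, adjusted p = 4.59e-10), a call that ended with GC content in the model (-0.50). In all 30000 pooled regions, shares were 17.8% for GTCTG, 12.4% for GGCGC, 3.47% for the GAGA repeat, 4.75% for the E-box, 25.1% for GATA sites and 5.82% for the homeodomain site.

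The composite site, in which a GC-rich element bound by Smads and GTCT, bound by the co-Smad, sit at a fixed spacing that recruits Schnurri in flies, was in 2 of the 723 distal windows. The palindrome GTCTAGAC was in 0 of 723, with an exact upper limit of 0.509%, against 6 of 1919 promoter windows. One composite lay in the crm-1 window and the other in the let-418 window, both printed above. The let-418 window had a signal of 117 in replicate 1, 186 in replicate 2 and 300.2 pooled. One or more of GTCTG, the GC-rich Smad site and the Mad site stood in 303 distal windows (41.9%), against 894 promoter windows (46.6%) and 193 intronic windows (43.7%), so most distal windows held none of them.

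**Figure D4:**
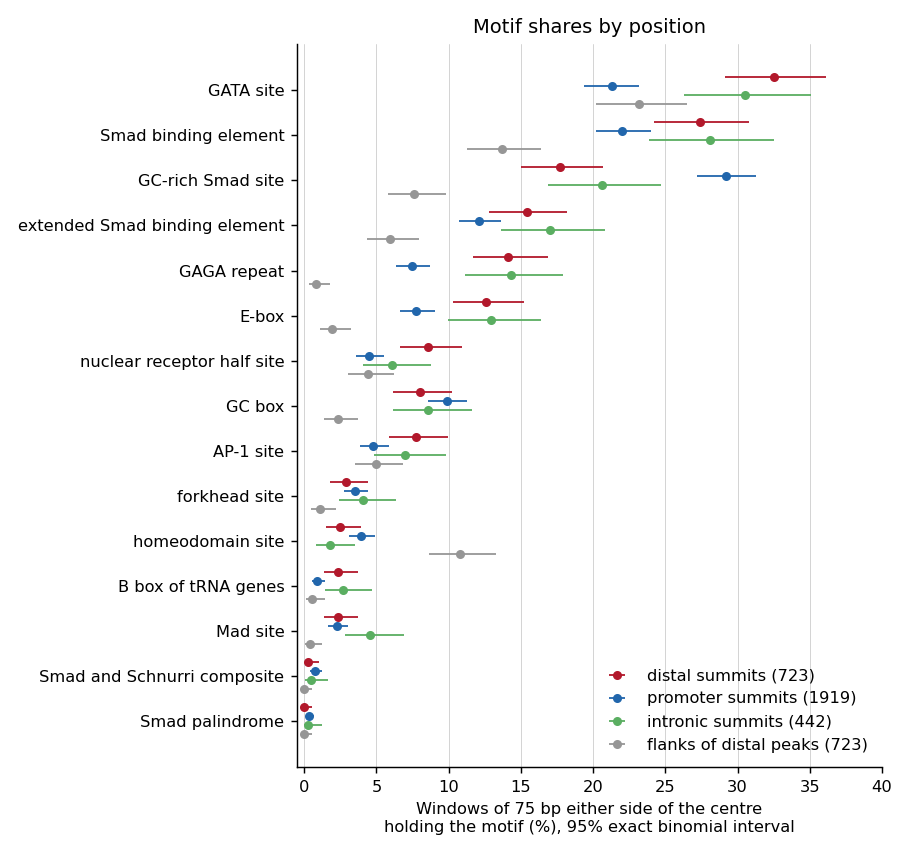
Share of windows of 75 bp to either side holding each of 15 motifs at distal, promoter and intronic summits and in the flanks of distal peaks, with 95% exact binomial intervals. No distal share differs from the intronic one past the threshold, GATA sites and the GAGA repeat are more frequent at distal than at promoter summits (32.5% against 21.3%, 14.1% against 7.45%), and GGCGC, the GC-rich Smad site, is less so (17.7% against 29.2%).

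Distal and promoter peaks differed in which motifs they held. At distal summits 8 of the 15 were more frequent: GATA sites (235 of 723, against 408 of 1919; log2 odds ratio 0.83, adjusted p = 3.28e-08 by Fisher's exact test), the GAGA repeat (102 against 143; 1.03, adjusted p = 1.95e-06), the nuclear receptor site (62 against 86; 1.00), the E-box (91 against 149; 0.78), GTCTG (198 against 423; 0.42), the AP-1 site (56 against 92; 0.74), the B box (17 against 17; 1.43) and CAGACA (111 against 232; 0.40). GGCGC alone was less frequent, in 128 of 723 distal windows (17.7%), against 561 of 1919 promoter windows (29.2%; -0.94, exact test, adjusted p = 1.27e-08). With GC content in the model 8 were again higher and 1 lower, but with a promoter window of 2000 bp 2 remained higher, GATA sites and the GAGA repeat, and 1 lower. Among the 2102 strongest peaks CAGACA (0.31), the AP-1 site (-0.01), the nuclear receptor site (0.82) and the B box (1.26) were not called. The CAGACA call also ended with 50 bp to either side (0.39) and without peaks at snoRNA, snRNA or ncRNA genes (0.4). It ended too in the pooled list as long as the ce10 optimal one (0.31). Distal and intronic peaks differed in none of the 15 motifs by Fisher's exact test, also at an unadjusted p under 0.05 (0 of 15) and with GC content in the model. Shares at distal and intronic summits were 27.4% and 28.1% for GTCTG, 14.1% and 14.3% for the GAGA repeat, 12.6% and 12.9% for the E-box, and 32.5% and 30.5% for GATA sites. These figures do not show that the classes are alike: for GTCTG the interval of the log2 odds ratio ran from -0.43 to 0.33, and for the Mad site, in 17 distal and 20 intronic windows, from -1.91 to -0.03 (exact test, unadjusted p = 0.0567).

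Among the distal peaks themselves, the 361 stronger held the E-box more often, in 61 windows (16.9%), against 30 among the 362 weaker (8.29%; log2 odds ratio 1.16, adjusted p = 0.00734 by Fisher's exact test). Among the 2102 strongest of the optimal list the direction turned, with 24 of 165 against 33 of 166 (-0.54, exact test, adjusted p = 0.42). Over all distal peaks, by the same exact test, GGCGC was in 78 against 50 (0.78, adjusted p = 0.0319), GATA sites in 28.0% against 37.0% (-0.60, adjusted p = 0.0413) and the AP-1 site in 17 against 39 (-1.27, adjusted p = 0.0238). GTCTG did not pass, in 28.8% against 26% (0.21). None of these calls was made from the strongest regions of replicate 2 alone, and with GC content in the model the E-box alone passed (1.29).

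Small non-coding RNA genes lay beside a share of the distal peaks. A small nucleolar RNA (snoRNA) gene, of the class that guides chemical modification of ribosomal RNA, was within 100 bp of 26 of the 723 summits (3.60%), against 2 of 768 lowest-ranked regions (0.260%), a log2 odds ratio of 3.54 (1.67 to 5.42, adjusted p = 2.34e-06 by Fisher's exact test). With the summit inside the gene it was 7 against 1, and the call ended (2.42, exact test, adjusted p = 0.101). The strongest were at T26A8.6 (168 in replicate 1, 215 in replicate 2, 379.6 pooled), F25H2.15 (138, 197 and 341) and Y74C9A.6 (123.5, 212 and 336.5). Genes annotated as ncRNA, short transcripts of no named class, were beside 83 (11.5%), against 34 (4.43%; 1.47, 0.88 to 2.07, exact test, adjusted p = 1.72e-06). The strongest of these peaks were at C17C3.23 (581, beside sls-2.2), H37A05.6 (495) and T23F11.7, which overlaps T23F11.10 on the other strand (495). Small nuclear RNA genes, among which the annotation counts spliced leader genes, were beside 6, against 2 (1.47, -0.64 to 3.58, exact test, adjusted p = 0.300). This passed among the 2102 strongest peaks (2.61, exact test, adjusted p = 0.0249) and without replicate 1 (3.86, exact test, adjusted p = 0.0204). Summits were counted singly, and the pair at sls-2.2 lies in the same interval of the optimal list, so these counts are not all independent. Pseudogenes were beside 9 distal peaks, against 64 lowest-ranked regions (-2.78, exact test, adjusted p = 2.55e-10). The strongest were at WBGene00023323 (403), WBGene00012975 (225) and WBGene00019095 (161). Genes of piRNAs, small RNAs of the germline, were beside 6, against 23 (-1.80, exact test, adjusted p = 0.00537), and within 500 bp they were beside 46, against 47 (0.06). The strongest were at 21ur-11069 (439.9), 21ur-13200 (362) and 21ur-12080 (110.3). In all, 594 distal summits (82.2%) had no annotated non-coding gene within 100 bp.

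The B box, part of the internal promoter that RNA polymerase III uses at tRNA genes, was in 17 distal windows although summits near tRNA genes were left out by the rule. Of the 17, 6 were beside snoRNA genes and 8 beside snoRNA, snRNA or ncRNA genes, whereas 6 of the 26 windows at snoRNA genes held it. The window at F32E10.10, printed above, had a signal of 78.8 in replicate 1, 121 in replicate 2 and 197 pooled. The difference in B box share from promoter peaks ended with a promoter window of 2000 bp (log2 odds ratio 0.54), among the 2102 strongest peaks (1.26) and with 100 bp to either side (0.82). It also ended without peaks at snoRNA, snRNA or ncRNA genes (0.76, Fisher's exact test, adjusted p = 0.366). In that setting the difference from flanks ended too (1.08, exact McNemar test, adjusted p = 0.308).

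Genes were tied to distal peaks by the nearest start site, which does not show that a peak acts on that gene. Of 17242 autosomal protein-coding genes, 578 were nearest to a distal peak, or 3.35%. Genes with long intergenic stretches collect more peaks by this measure, so peaks per Mb of the sequence nearest to each list's start sites are given beside the counts. The lists were chosen with earlier results of these data known, and no test was run on them.

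Of the 14 autosomal genes of the BMP list, 5 were nearest to a distal peak (35.7%, beside 3.35% of all), with 8 peaks in 22.6 kb of sequence. This is 354 peaks per Mb (95% Poisson interval 153 to 698), against 37.3 over all genes, and 4 of the 8 peaks were at lon-1. With the nearest gene whose start faces the peak the count was 3 of 14. The receptors were represented by daf-4, the type II receptor gene, with a peak 3743 bp upstream of 65.6 in replicate 1, 47.9 in replicate 2 and 107 pooled, and by sma-6, the type I receptor gene, with a peak 3045 bp past its start of 34.0, 38.7 and 73.3, outside the strongest regions of replicate 2. The co-Smad gene sma-4 had a peak 1438 bp past its start, 22.6 in replicate 1, 54.97 in replicate 2 and 78.2 pooled, outside the strongest regions of replicate 1. Among modulators, crm-1, whose product resembles Crossveinless and promotes signalling, had a peak 1863 bp upstream of 36.0, 46.0 and 87.6, in the window with the composite site. All 4 were among weaker distal peaks, below the median of 114.

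The gene lon-1, which encodes a secreted protein of the CRISP family that acts downstream of the Smads and limits body length, had 4 distal peaks upstream. The strongest, 1543 bp upstream, had 195 in replicate 1, 300.5 in replicate 2 and 495.5 pooled. The next, 2789 bp upstream, had 73.3, 59.9 and 132. The third, 3688 bp upstream, had 25.9, 81.4 and 104.3, and lay outside the strongest regions of replicate 1. The fourth, 4808 bp upstream, had 48.8, 64.7 and 114.6. The window of the strongest held CAGACA, the GC-rich Smad site as a pair of GGCGCC, which matches on both strands, a GAGA repeat and a GC box. That of the second held GTCTG and an AP-1 site, that of the third a GATA site, and that of the fourth an AP-1 site, so GTCTG stood in the pair nearest to the gene.

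**Figure D5:**
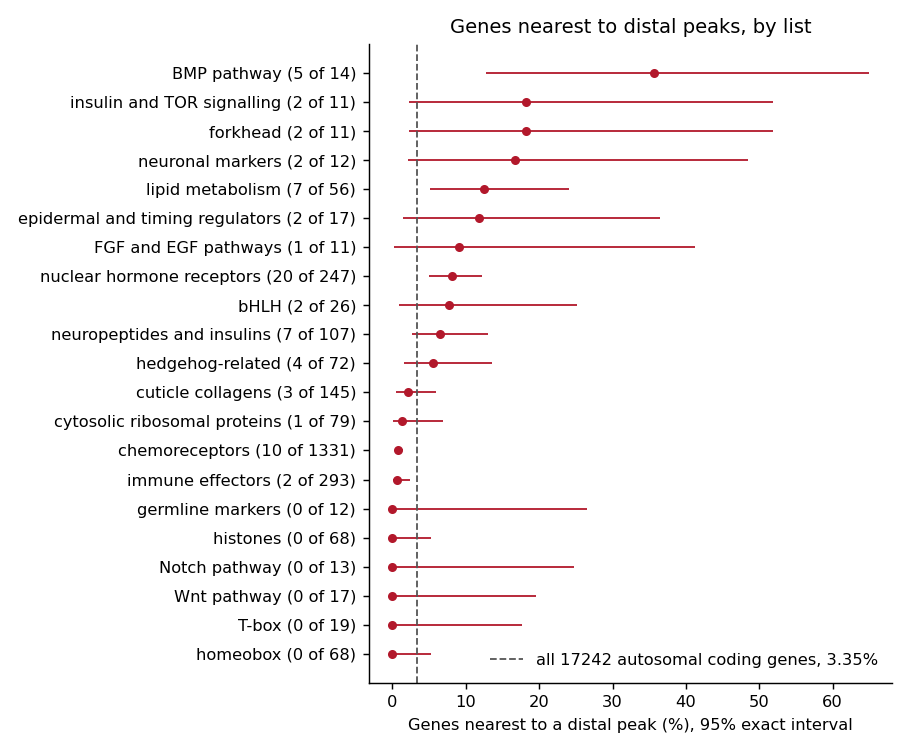
Share of autosomal genes in each list of at least 11 genes whose start site is nearest to a distal peak, with 95% exact binomial intervals; the dashed line is the 3.35% of all 17242 genes. The BMP list stands at 35.7% and lipid metabolism at 12.5%, and the homeobox and histone lists at 0.

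Lipid metabolism had 7 of 56 genes (12.5%) and 133 peaks per Mb (57.6 to 263). The gene fat-2, of a fatty acid desaturase, had a peak 1207 bp upstream with 163 in replicate 1, 182 in replicate 2 and 347 pooled. Its neighbour fat-1, the omega-3 desaturase gene, had peaks of 142 and 87.8, and the first of them lay in the same 5061-bp stretch as the fat-2 peak. A peak of 247 was 3324 bp past the start of acs-11, an acyl-CoA synthetase gene. The others were sbp-1, of the sterol regulator SREBP (138), elo-3, of a fatty acid elongase (121), lbp-7 (89.5) and acs-6 (79.8). Of these, the elo-3 peak lay outside the strongest regions of replicate 1.

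Nuclear hormone receptors, a family much enlarged in worms, had 20 of 247 genes (8.10%) and 67.3 peaks per Mb (43.6 to 99.4). The strongest peaks were at nhr-85, 1949 bp upstream (144 in replicate 1, 239 in replicate 2, 369 pooled), nhr-20, 4663 bp upstream (157, 191 and 338), and nhr-21, 1560 bp upstream (167, 156 and 323). In nutrient signalling 2 of 11 genes had one: daf-16, the FOXO factor gene downstream of the insulin receptor (170 and 148), and rsks-1, the S6 kinase gene downstream of TOR (145), whose window holds a pair of GAGA stretches. This list had 338 peaks per Mb (69.8 to 989), from 3 peaks in 8.87 kb. The weaker daf-16 peak overlapped no region of replicate 2. The forkhead list also had 2 of 11, daf-16 and fkh-7 (97.4), with 90.4 peaks per Mb (18.6 to 264). Epidermal and timing regulators had 2 of 17, lin-41 (262.5) and blmp-1 (159), both of which act in the timing of larval development. That list had 40.5 peaks per Mb (4.91 to 146), beside 37.3 over all genes. Basic helix-loop-helix genes had 2 of 26, hif-1 (426) and hlh-10 (101.3), and the FGF and EGF pathways 1 of 11, sos-1 (162). Their densities were 23.6 (2.86 to 85.4) and 53.9 (1.36 to 300) peaks per Mb. The hlh-10 peak lay outside the strongest regions of replicate 1.

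Peptide, hedgehog-related, collagen and ribosomal protein genes had densities whose intervals include the 37.3 peaks per Mb of all genes. The same held for the forkhead, epidermal and timing, helix-loop-helix, and FGF and EGF lists. Neuropeptide and insulin genes had 7 of 107 (6.54%) with 35.7 peaks per Mb (16.3 to 67.7), the strongest at ins-13 (581), nlp-40 (493) and nlp-24 (209). With the nearest gene whose start faces the peak the count was 3 (2.8%, beside 2.89% of all genes). Any start within 5000 bp gave 14 (13.1%, beside 6.13% of all genes). Hedgehog-related genes had 4 of 72 (5.56%) with 55.6 peaks per Mb (18.1 to 130), the strongest at ptr-13 (279), ptr-25 (131) and ptr-14 (91.8). Cuticle collagens, of which several are known targets of the pathway, had 3 of 145 (2.07%): col-3 (103.8), col-12 (81.7) and col-10 (80.3), all with the summit past the start of the gene. The col-3 and col-12 peaks lay outside the strongest regions of replicate 1. The collagen density was 22.3 peaks per Mb (4.6 to 65.1). Cytosolic ribosomal proteins had 1 of 79, rpl-31 (90.8).

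Homeobox and chemoreceptor genes had few or no distal peaks. Homeobox genes had 0 of 68, with an exact upper limit of 5.28% that lies above the 3.35% of all genes. By density, 219 kb of eligible sequence is nearest to their start sites, which gives 0 peaks per Mb. The upper limit there was 16.8, below the 37.3 of all genes. Under the other rules 1 (1.47%) had a start facing a peak and 2 (2.94%) a start within 5000 bp of one, beside 2.89% and 6.13% of all genes. The 6 Hox genes of a separate list had 0 peaks in 48.9 kb (upper limit 75.4). Chemoreceptor genes had 10 of 1331 (0.751%) and 7.37 peaks per Mb (3.54 to 13.6), the strongest at srlf-26 (231), srx-88 (187) and str-166 (166), of which the srx-88 and str-166 peaks lay beside snoRNA genes. Immune effectors had 2 of 293 (0.683%), clec-1 with 3 peaks (146 at most) and cnc-10 (77.2), with 18.7 peaks per Mb (5.09 to 47.8). The cnc-10 peak lay outside the strongest regions of replicate 1. Histone, T-box, Wnt, Notch and dauer TGF-beta genes had 0 of 68, 19, 17, 13 and 5, but little sequence is nearest to them and their upper limits, from 96.2 to 334 per Mb, lie above the 37.3 of all genes. T-box and Wnt genes had 1 each within 5000 bp of a peak.

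Tissue markers were short lists. Neuronal markers had 2 of 12, snt-1 with peaks of 159.5 and 137 more than 10000 bp past its start and snb-1 (84.95), and hypodermal markers 1 of 8, col-10. Intestinal, body muscle, pharyngeal and germline markers had 0 of 6, 8, 8 and 12, with upper limits of 220, 309, 234 and 2860 peaks per Mb. Depth is unknown and the lists are short, so these zeros set only wide limits. With the nearest gene whose start faces the peak, neuronal markers had 1, hypodermal markers 0 and body muscle markers 1.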

How the data were processed

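The authors deposited narrowPeak lists on ce10 and ce11 for each replicate, for both replicates pooled and for the optimal set by irreproducible discovery rate. Per the file listing deposited with the samples, each list came from the alignments and 1 shared control. For aligner, caller and thresholds, versions included: not given in the sources used here. Depth is unknown. Column 7 of the deposited lists is the authors' signal value. Column 9 is the authors' −log10 q, tied at its maximum in all optimal peaks and therefore not used to rank them. The optimal ce11 list equals the 4205 highest-signal pooled regions, and the ce10 optimal list holds 5405.

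Summits of the ce11 lists were placed with Ensembl release 115 (WBcel235, 29314 start sites of 19973 protein-coding genes) and the RefSeq sequence of that assembly. Shares of peak classes were compared with Fisher's exact test, the chromosome share with an exact binomial test and paired windows with an exact McNemar test, all two-sided, adjusted by Benjamini and Hochberg's method over 15 property comparisons, 15 motifs or 9 non-coding classes, at 0.05. Odds ratios had 0.5 added to each cell. Intervals are 95%, exact for shares and densities and by normal approximation for log2 odds ratios, and cover counting only. GC content entered logistic models, conditional on the pair for summits and flanks. Peaks share 2 libraries, so the tests compare regions, not animals. Named genes are those of the 20 strongest distal peaks found in both replicates, all BMP list genes with a peak, and up to 3 genes of each other list or non-coding class that passed. Others were chosen after their values were seen, as were the GC profile, the comparison of stronger and weaker distal peaks and the crowded stretches. Members and lists were chosen with earlier results of these data known. Of the listed symbols, 2 had no gene in the annotation. The tests were checked on simulated data. Alternatives changed the peak set, windows, distances, control windows and gene assignment. Python 3.11.15, pandas 2.3.3, numpy 2.4.6, scipy 1.17.1, statsmodels 0.14.6 and matplotlib 3.10.9 were used.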

Additional observations from a re-analysis of the deposited data

How the results depend on the processing

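No paired analysis was possible because the series has 1 group, so no groups share replicate numbers. Calls on signal, orientation, repeats against lowest-ranked regions and chromosome position kept their direction and side of the threshold under every alternative run. The other calls moved as follows, as log2 odds ratios or counts; the cause was not tested. Among the 2102 strongest peaks, distal against promoter peaks gave -2.37 for replicate overlap (now called), 4 motifs higher and 2 lower, and summits against flanks 5 higher. As many pooled regions as the ce10 optimal list gave -0.42 for replicate overlap and -0.36 for GC against intronic peaks. Leaving out a replicate moved GC against intronic peaks to between -0.47 and -0.44, both past the threshold, neighbours against intronic peaks to between -0.47 (called, without replicate 1) and -0.27, and repeats against intronic peaks to between -0.08 and 0.55 (called, without replicate 2). A replicate overlap has no value without a replicate. A 2000-bp promoter window gave 0.28 for neighbours against promoter peaks and 2 motifs higher. Neighbours within 500 bp gave 0.19 against promoter peaks, and within 2000 bp -0.53 against intronic peaks. A GC window of 50 bp either side reversed GC against promoter peaks to -0.72, while 150 bp gave 0.85, and -0.57 against intronic peaks. A motif window of 100 bp either side gave 2 lower against promoter peaks. With GC content in the model, summits against flanks gave 6 higher and 0 lower, and the B box turned to -1.49; the palindrome could not be fitted in any comparison, nor the composite against flanks or between stronger and weaker peaks. Stronger against weaker distal peaks, added after seeing the data, gave 0 higher and 0 lower among the 2102 strongest, between 0 and 3 higher and between 0 and 2 lower with a replicate left out (0 of each without replicate 1), 0 lower with a 2000-bp window, 1 higher and 0 lower with 50 bp either side, with GC content or without peaks at snoRNA, snRNA or ncRNA genes, and 1 lower with 100 bp either side. Non-coding classes gave 1 higher and 1 lower at 0 bp, where snoRNA genes lost their call, and 1 lower within 500 bp, where piRNA genes turned to 0.06. Among the 2102 strongest the AP-1 site turned to -0.01 against promoter peaks and the E-box to -0.54 between stronger and weaker distal peaks. Flanks taken on the left, at 1000 bp or, added after seeing the data, where they meet the position rule gave 9 to 10 motifs higher and 1 lower, and lost the forkhead site and the B box. Any start within 5000 bp tied 1057 genes to distal peaks. Among values of single motifs, classes and lists, 615 kept their status, which includes values called in neither setting. All 134 motif values of distal against intronic peaks are of that kind. A call was lost by 67 and gained by 8, 20 list counts moved and 4 values reversed. Depth is unknown, so no limit on undetected peaks can be given.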
